A study of Mus musculus with 13 samples.

Results

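CD4 T cells are the helper and regulatory arm of adaptive immunity. Their T cell receptor reads peptides on MHC class II, with CD4 as co-receptor, and they act on other cells through surface ligands such as CD40 ligand and through cytokines. CD8 T cells read MHC class I and carry a cytotoxic programme of granule proteins and chemokines. Regulatory T cells, a CD4 subset that depends on the transcription factor Foxp3, are known in mouse muscle for limiting inflammation and for making amphiregulin, a growth factor that acts on muscle progenitors.

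The CD4 T cells described here were 167 of the 12441 cells in 2 droplet single-cell libraries of hindlimb muscle. The muscle came from uninjured wild-type C57BL/6 mice aged 2 months and was dissociated with enzymes and by mechanical means into a suspension of mononuclear cells. A cell was counted as a CD4 T cell if it held at least 1 UMI (a counted mRNA molecule) of Cd3d, Cd3e or Cd3g, which encode CD3 chains, at least 1 UMI of Cd4, and none of Cd8a, Cd8b1 or the B cell gene Cd79a. CD8 T cells, used for comparison, were the cells with a CD3 chain UMI, a Cd8a or Cd8b1 UMI, and no UMI of Cd4 or Cd79a. Both kinds of cell came from the same 2 suspensions, and the series' other 11 samples, bulk libraries of sorted cells, were not used.

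Library 1 gave 121 CD4 T cells of 6144 cells, or 1.97% (exact binomial 95% interval 1.64 to 2.35%). Library 2 gave 46 of 6297, or 0.731% (0.535 to 0.973%). The mean over libraries was 1.35% ± 0.876 (SD, n = 2), and the 2 intervals did not overlap, so the share differed between libraries by more than counting error. CD8 T cells numbered 282 and 262 in libraries 1 and 2, which is 4.59% and 4.16% of cells. Among cells with a CD3 UMI and no Cd79a UMI, CD4 T cells made up 15.3% in library 1 and 4.98% in library 2. CD4 T cells had a median of 2999 UMIs and 998 genes in library 1 and of 2021 UMIs and 776 genes in library 2, against 3737.5 and 2742.5 UMIs in CD8 T cells. The other cells of the 2 libraries had medians of 2497 and 2027 UMIs.

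The rule rests on few molecules. The cells were chosen by their UMIs of Cd3d, Cd3e, Cd3g, Cd4, Cd8a, Cd8b1 and Cd79a, whose values are given only as a description. Of the 167 CD4 T cells, 137 held exactly 1 Cd4 UMI and 30 held more, up to 4 in a cell. When each cell was thinned at random to 1000 UMIs, 45.5% of the CD4 T cells of library 1 and 40.0% of those of library 2 still held a Cd4 UMI. As summed levels, Cd4 stood at 395 and 443 CPM (UMIs scaled to a common total) in CD4 T cells, Cd3d at 898 and 626 CPM, Cd3e at 365 and 399.7 CPM and Cd3g at 982 and 729.9 CPM. CD3 was better covered, with medians of 6 and 3 CD3 UMIs per CD4 T cell, and 7 cells in all held exactly 1. Just outside the rule were 381 cells of library 1 and 615 of library 2 with CD3 but neither Cd4 nor Cd8, 26 and 18 cells with Cd4 but no CD3, 7 and 1 cells with Cd4 and Cd8 together, and 45 and 57 cells with CD3 and Cd79a. How many cells with CD3 alone are CD4 T cells whose Cd4 was not sampled cannot be told at this depth.

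The label was checked on genes the rule did not use. Trbc2, which encodes a constant region of the T cell receptor beta chain, had at least 1 UMI in 96.7% of CD4 T cells in library 1 and 82.6% in library 2, against 95.04% and 83.6% of CD8 T cells. Endothelial-marked cells, which should lack it and had medians of 1971 and 1714 UMIs, showed it in 1.61% and 3.67%. Summed over the cells, Trbc2 stood at 2112 and 999 CPM in CD4 T cells, against 1646 and 1034 in CD8 T cells. Trac, of the alpha chain, stood at 704 and 652 CPM in CD4 T cells, against 524 and 366 in CD8 T cells. Zbtb7b, the transcription factor ThPOK that directs thymocytes to the CD4 lineage, had 7 and 4 UMIs in CD4 T cells and 2 and 0 in CD8 T cells, which is too few for the test; the pooled per-UMI ratio was 20.4 (95% counting interval 4.45 to 189).

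Markers of other cell types were checked in the same sums. Of the markers of natural killer cells, Ncr1, Klrb1c, Klra8, Klra4, Klre1, Gzma and Eomes were at 0 in CD4 T cells of both libraries, and the whole list summed to 38.3 and 17.4 CPM, against 124.5 and 237 in CD8 T cells. The gamma-delta T cell receptor genes summed to 2 and 0 UMIs, against 10 and 8 in CD8 T cells. Among B cell genes Ms4a1 had 1 and 0 UMIs in CD4 T cells, while Ighm, the immunoglobulin mu chain, was seen in 47.9% and 32.6% of CD4 T cells, against 61.0% and 31.3% of CD8 T cells and 5.28% and 7.33% of endothelial-marked cells. The fibro-adipogenic progenitor list was the highest, at 3245 and 4944 CPM in CD4 T cells, against 1464 and 1522 in CD8 T cells. The receptor and CD3 list of the CD4 T cells, with Cd3d, Cd3e and Cd3g left out, summed to 3849 and 2589 CPM, which is less in library 2. The progenitor sum includes Gsn and Ly6a, which were not used to find the barcodes counted next. In library 1, Gsn was seen in 54.6% of CD4 T cells and 47.5% of CD8 T cells, and Ly6a in 33.1% and 17.4%. Barcodes with at least 10 UMIs of another type's markers numbered 5 of 121 and 3 of 46 among CD4 T cells, and 9 of 282 and 9 of 262 among CD8 T cells. These few CD4 barcodes held 87.0% and 94.02% of the Dcn UMIs and 87.6% and 97.4% of the Col1a1 UMIs of all CD4 T cells.

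CD4 T cells were set against CD8 T cells by summing each kind per library and testing the 4 sums with edgeR's quasi-likelihood test, with the library as a block and the 7 rule genes left out. Of 5296 genes tested, 284 (5.36%) passed an adjusted p of 0.05, 117 higher in CD4 T cells (2.21%) and 167 lower (3.15%). Higher were costimulatory and regulatory T cell genes, among them Tnfrsf4, Cd40lg and Ctla4. Lower were the cytotoxic genes Ccl5, Nkg7, Klrd1 and Ctsw, together with Ly6c2 and 75 of the 87 ribosomal protein genes tested. Some genes passed the filter on low counts only through the kind of cell where they are high. Among them were Tnfrsf4, Cd40lg, Ctla4 and Pdcd1 in CD4 T cells and Nkg7, Klrd1 and Ly6c2 in CD8 T cells. Without the barcodes that carry RNA of another type, 212 of 4863 genes tested were called (4.36%), 63 higher (1.3%) and 149 lower (3.06%), and 202 of those calls were among the 284. DESeq2 called 21 genes (0.397%), 14 higher (0.264%) and 7 lower (0.132%), all among the 284, and edgeR without the library block called 0 higher and 1 lower, with 122 and 136 genes at an unadjusted p under 0.05. The 4 sums leave 1 residual degree of freedom, so the edgeR p-values rest on a spread pooled over all genes. They measure only the spread between these libraries, which the labels do not say came from separate animals.

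**Figure D1:**
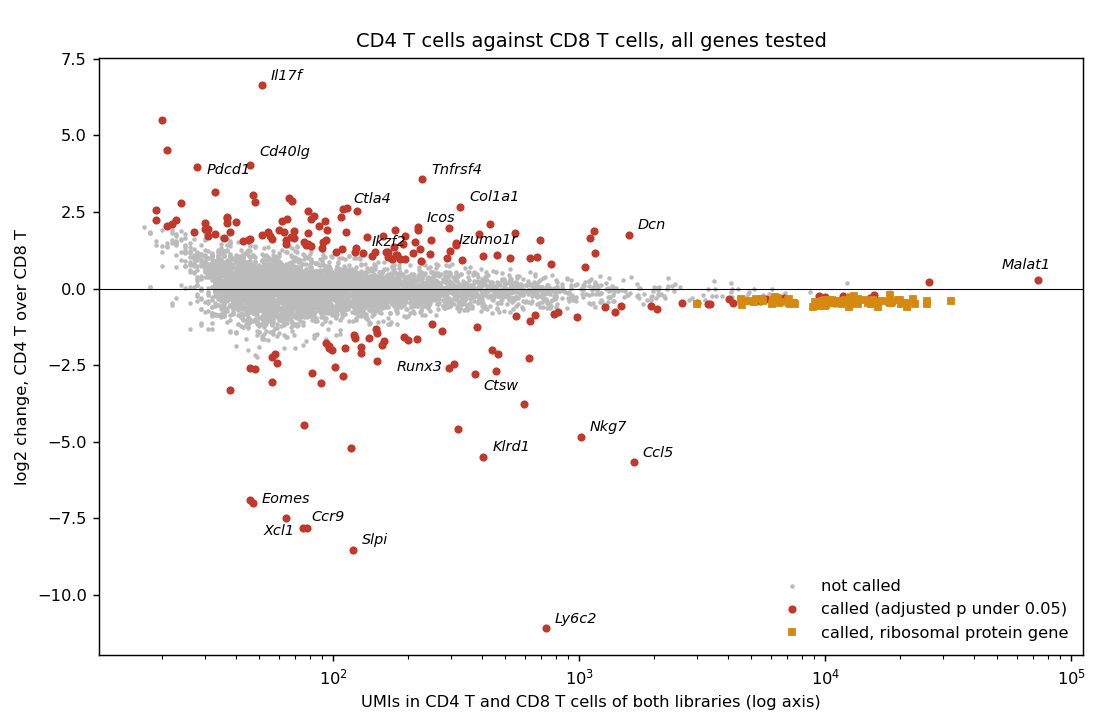
Each point is 1 of the genes tested, with its UMIs in CD4 T and CD8 T cells of both libraries on the x axis (log scale) and its log2 change, CD4 T over CD8 T, on the y axis; filled red points and orange squares passed an adjusted p of 0.05. Tnfrsf4, Cd40lg and Ctla4 lie high, Ccl5, Nkg7, Klrd1 and Ly6c2 lie low, and the called ribosomal protein genes form a band at high counts with a median log2 change of -0.41 over all 87 of them tested.

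Costimulatory genes were among those higher in CD4 T cells. Tnfrsf4 encodes OX40, a costimulatory receptor of activated and regulatory T cells. It had 111 and 61 UMIs in CD4 T cells of libraries 1 and 2, against 12 and 46 UMIs in CD8 T cells. In CPM, that is 283 and 530 in CD4 T cells and 10.9 and 59.1 in CD8 T cells, so that both CD4 values lay above both CD8 values. The log2 change was 3.57 ± 0.30 (SE; edgeR adjusted p = 4.06e-30; DESeq2 adjusted p = 2.56e-10).

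Cd40lg, the ligand by which helper T cells activate B cells and macrophages, had 31 and 8 UMIs in CD4 T cells, against 7 and 0 in CD8 T cells. Those UMIs were spread over 37 CD4 T cells, and the log2 change was 4.03 ± 0.55 (edgeR adjusted p = 5.6e-11). Icos, a costimulatory receptor, stood at 196 and 330 CPM in CD4 T cells, against 35.4 and 84.8 in CD8 T cells (log2 change 2.01 ± 0.29). Ctla4, the inhibitory counterpart of Cd28, stood at 145 and 122 in CD4 T cells, against 12.7 and 30.9 in CD8 T cells (log2 change 2.61 ± 0.37). All 4 genes passed both edgeR and DESeq2. Cd28 itself, the receptor that delivers the main costimulatory signal to naive T cells, was higher by a log2 change of 0.93 ± 0.28 in edgeR alone, at 306 and 139 CPM in CD4 T cells, against 106 and 103 in CD8 T cells. Of the 13 costimulation and adhesion genes tested, 5 were higher and 0 lower, beside 2.21% higher and 3.15% lower of all genes tested. The median log2 change of the list was 0.88, against -0.025 over all genes tested. Cd40lg, Tnfrsf4 and Ctla4 passed the filter on low counts through CD4 T cells, where they are high, so their calls are not independent of that filter.

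**Figure D2:**
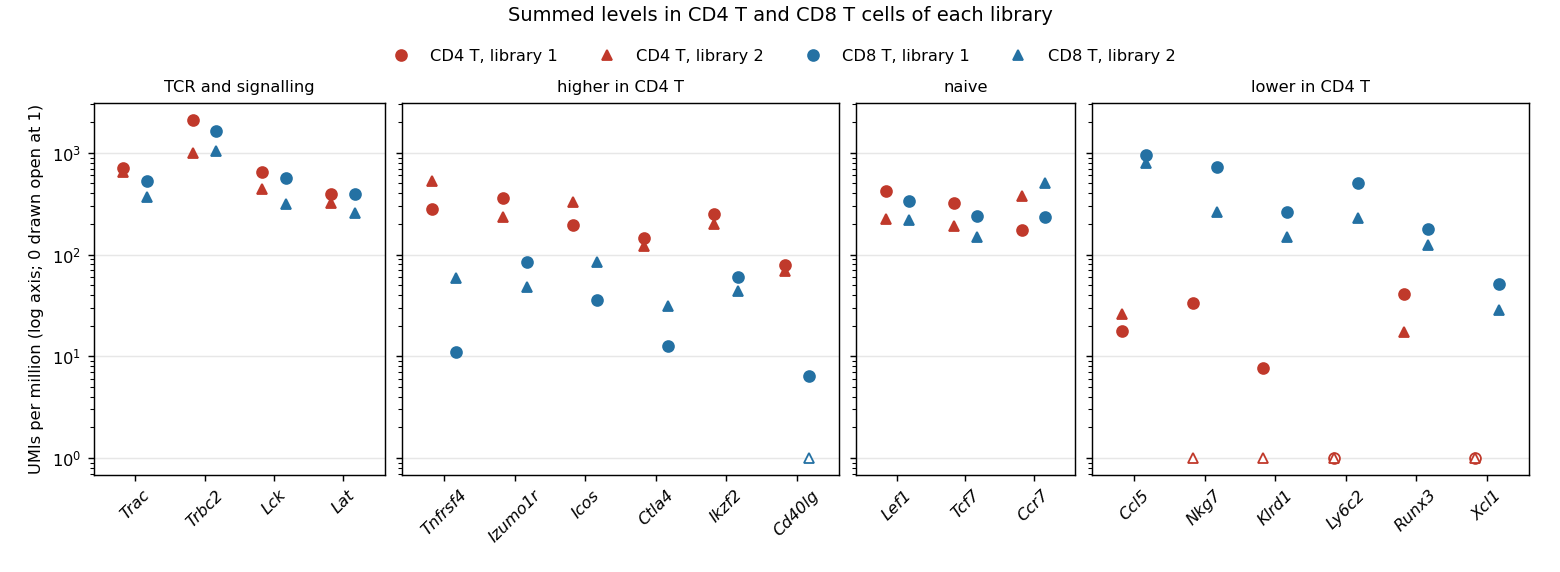
CPM (log axis) in CD4 T cells (red) and CD8 T cells (blue) of library 1 (circles) and library 2 (triangles); open symbols at 1 stand for 0 UMIs. The receptor, signalling and naive genes lie close together, the CD4 T cells lie higher for the 6 genes from Tnfrsf4 to Cd40lg, and lower for the 6 genes from Ccl5 to Xcl1.

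Some regulatory T cell genes were higher as well. Of the 15 listed, 8 had enough UMIs for the test. Of these, 5 were higher in CD4 T cells and 0 lower, beside 2.21% higher and 3.15% lower of all genes tested. Their median log2 change was 1.85, against -0.025 over all genes tested. Tnfrsf4, Ctla4 and Foxp3 passed the filter on low counts through CD4 T cells, so the count of 5 and the median do not describe the list. Beside Tnfrsf4 and Ctla4 the higher members were Izumo1r, Ikzf2 and Capg. Izumo1r, the folate receptor family member FR4 of regulatory and resting CD4 T cells, stood at 357 and 235 CPM in CD4 T cells, against 83.6 and 47.6 in CD8 T cells (log2 change 1.97 ± 0.28; edgeR adjusted p = 2.12e-10). Ikzf2, the transcription factor Helios, stood at 250 and 200 CPM in CD4 T cells, against 60.0 and 43.7 in CD8 T cells (log2 change 1.90 ± 0.30). Capg, an actin-capping protein, stood at 171 and 130 in CD4 T cells, against 37.2 and 46.3 in CD8 T cells (log2 change 1.72 ± 0.33), and did not pass DESeq2. Foxp3 was too scarce to call. It had 7 and 2 UMIs in 6 and 2 CD4 T cells, against 3 and 6 UMIs in CD8 T cells, with a log2 change of 1.80 ± 0.71 (edgeR adjusted p = 0.15). Tnfrsf18, the receptor GITR, had a log2 change of 0.72 ± 0.28 (edgeR adjusted p = 0.125), and Lrrc32, which presents latent TGF-beta, of 1.62 ± 0.55 (edgeR adjusted p = 0.0571).

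The other members had too few UMIs for the test against CD8 T cells. Il2ra, the high-affinity interleukin-2 receptor chain, had 10 and 0 UMIs in CD4 T cells, against 3 and 3 in CD8 T cells. Itgb8, an integrin chain that activates TGF-beta, had 6 and 6, against 2 and 4. Areg, amphiregulin, had 41 UMIs in 8 CD4 T cells of library 1 and 0 in library 2, against 2 and 1 UMIs in CD8 T cells, so that its level rests on 1 library. Ikzf4 had 6 and 6 UMIs against 11 and 12 in CD8 T cells, Gpr83 had 6 and 0 against 5 and 3, Il1rl1 had 0 and 1 against 6 and 1, and Klrg1, listed for library 1 only, had 4 against 2.

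Several regulatory and costimulatory transcripts were not spread evenly over the CD4 T cells. Splitting the cells by a UMI of Tnfrsf4, a split chosen after the values were seen and given with no test, put 21 cells of library 1 and 9 of library 2 on one side and 100 and 37 on the other. Ikzf2 was seen in 71.4% of Tnfrsf4-positive cells of library 1 and 66.7% of those of library 2, against 8% and 0% of Tnfrsf4-negative cells. Icos was seen in 76.2% and 77.8% of Tnfrsf4-positive cells, against 12% and 8.11% of Tnfrsf4-negative cells. Ctla4 was seen in 61.9% and 77.8% of the positive cells, against 8% and 2.70% of the negative cells. Tnfrsf18 was seen in 90.5% and 88.9% of the positive cells, against 18.0% and 18.9% of the negative cells. Cd40lg went the other way, in 14.3% and 11.1% of the positive cells, against 27% and 16.2% of the negative cells. Of the 8 cells with a Foxp3 UMI, 5 of 6 in library 1 and 2 of 2 in library 2 were Tnfrsf4-positive, and 7 of the 8 Areg cells of library 1 were.

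Transcripts of naive T cells ran the other way over the same split. Lef1, a transcription factor of naive T cells, was seen in 33.3% and 11.1% of Tnfrsf4-positive cells, against 69.0% and 56.8% of Tnfrsf4-negative cells. Dapl1 was seen in 4.76% and 0% of the positive cells, against 38% and 29.7% of the negative cells, and Igfbp4 in 9.52% and 11.1%, against 60.0% and 35.1%. Trbc2 and Lck, which all T cells need, were nearer to each other. Trbc2 was seen in 95.2% and 100% of the positive cells, against 97.0% and 78.4% of the negative cells, and Lck in 85.7% and 66.7%, against 85.0% and 54.1%. Median depth was 2806 and 2727 UMIs in Tnfrsf4-positive cells, against 3024 and 1993 in Tnfrsf4-negative cells. After thinning to 1000 UMIs, Ikzf2 remained in 47.6% and 44.4% of the positive cells, against 4% and 0% of the negative cells, and Lef1 in 14.3% and 0%, against 38% and 36.1%.

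**Figure D3:**
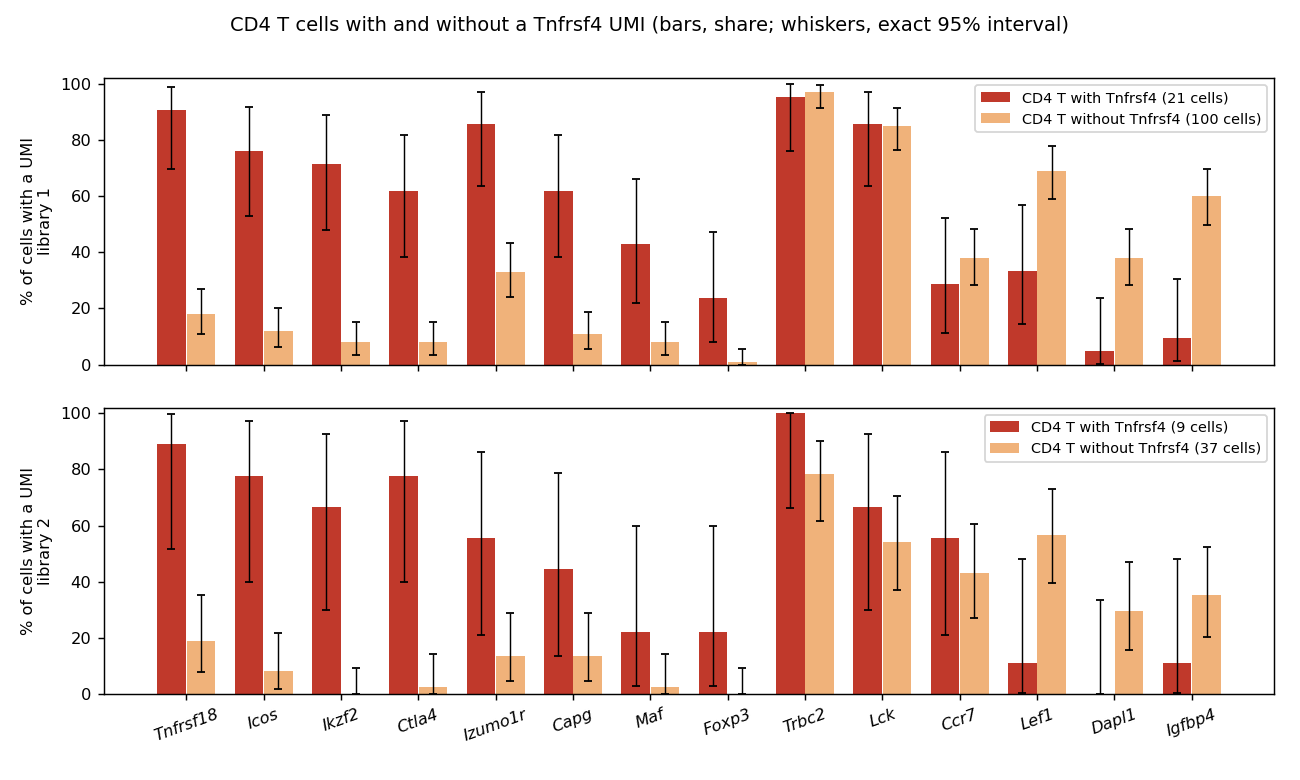
Share of cells with at least 1 UMI among CD4 T cells with a Tnfrsf4 UMI (red) and without (orange), for library 1 (top) and library 2 (bottom); whiskers are exact 95% binomial intervals and cover counting error only. From Tnfrsf18 to Foxp3 the red bars are taller in both libraries, and for Lef1, Dapl1 and Igfbp4 the orange bars are; Ccr7 goes opposite ways in the 2 libraries.

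Ccr7, the chemokine receptor that guides naive and recirculating cells into lymph nodes, was seen in 36.4% and 45.7% of CD4 T cells, against 46.1% and 52.3% of CD8 T cells. Thinned to 1000 UMIs the shares came to 18.2% and 33.3% in CD4 T cells, against 18.8% and 32.95% in CD8 T cells, so the larger share in the deeper CD8 T cells was not seen at equal depth. Endothelial-marked cells held Ccr7 in 2.295% and 4.56%. Within CD4 T cells Ccr7 was found in 6 of 21 and 5 of 9 Tnfrsf4-positive cells, against 38 of 100 and 16 of 37 Tnfrsf4-negative cells.

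Of the 12 naive and recirculating genes tested against CD8 T cells, 1 was higher and 1 lower, beside 2.21% higher and 3.15% lower of all genes tested, so these counts say little about the list. Igfbp4, an insulin-like growth factor binding protein of naive T cells, stood at 431 and 226 CPM in CD4 T cells, against 185 and 82.3 in CD8 T cells (log2 change 1.10 ± 0.26; edgeR adjusted p = 0.000586). Dapl1 stood at 309 and 182 in CD4 T cells, against 597 and 226 in CD8 T cells (log2 change -0.92 ± 0.23; edgeR adjusted p = 0.00167). Lef1 had a log2 change of 0.02 ± 0.23 and Tcf7, its partner among naive T cell transcription factors, of 0.20 ± 0.25, and neither passed the test. Tox, which the CD4 lineage needs in the thymus, was the single called member of 5 tested CD4 lineage regulators, at 89.3 and 69.5 CPM in CD4 T cells, against 31.8 and 30.9 in CD8 T cells (log2 change 1.18 ± 0.39; edgeR adjusted p = 0.0488).

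Effector and memory genes were mixed. Of 15 tested, 7 were higher and 1 lower in CD4 T cells, with a median log2 change of 0.42, beside 2.21% higher, 3.15% lower and a median of -0.025 over all genes tested. With barcodes with RNA of another type left out, 4 were higher, beside 1.3% of all genes. S100a4, a calcium-binding protein of antigen-experienced T cells, stood at 91.8 and 226 CPM in CD4 T cells, against 19.1 and 30.9 in CD8 T cells (log2 change 2.35 ± 0.36; edgeR adjusted p = 7.1e-09). Lgals1 and S100a6 were higher by log2 changes of 1.04 ± 0.22 and 0.98 ± 0.22, and like S100a4 they stayed past the threshold without those barcodes. Neither Lgals1 nor S100a6 passed DESeq2 (adjusted p = 0.212 and 0.681) or edgeR with cells thinned to 1000 UMIs (adjusted p = 0.308 and 0.104). Cd44, the usual surface mark of memory T cells, had a log2 change of 1.31 ± 0.41 (edgeR adjusted p = 0.0299), and without those barcodes its adjusted p was 0.731. Cd44, S100a6 and Lgals1 were all at higher levels in all other cells than in CD4 T cells. Whether RNA of other cells adds to their levels here was not tested.

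The single lower member was Ly6c2, which encodes a Ly6C surface protein of memory CD8 T cells and monocytes. It had 0 UMIs in CD4 T cells of both libraries, against 552 and 177 UMIs in CD8 T cells. Set against a floor of 3 counts over the CD4 T cells of both libraries, it was at least 65.6-fold lower. Ly6c2 passed the filter on low counts through CD8 T cells alone, where it is high, so its call (edgeR adjusted p = 4.75e-45) adds no support. DESeq2 did not call it (adjusted p = 1). A count of 0 in 121 and 46 cells allows shares of up to 2.48% and 6.52% of cells with a UMI, and CD8 T cells stood at 40.8% and 27.5%. Endothelial-marked cells held Ly6c2 in 9.03% and 12.7%.

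Of 13 cytotoxic granule and NK receptor genes in the tables, 5 had enough UMIs for the test and were called lower in CD4 T cells. Klrd1, Nkg7 and Xcl1 reached the test through CD8 T cells, where they are high, so the count of 5 does not describe the list. The 8 untested members had 0 to 6 UMIs each in all CD4 T cells, against 0 to 99 in CD8 T cells. Ccl5, a chemokine of effector T cells, had 7 and 3 UMIs in CD4 T cells, against 1037 and 616 in CD8 T cells (log2 change -5.67 ± 0.30; edgeR adjusted p = 8.32e-76). Nkg7, a granule membrane protein, had 13 and 0 UMIs in CD4 T cells, against 793 and 205 in CD8 T cells (log2 change -4.84 ± 0.34), and 53.9% of the CD4 UMIs were in 1 cell. Klrd1, the CD94 chain of an NK receptor, had 3 and 0 UMIs in CD4 T cells, against 289 and 115, a pooled ratio of 0.0275 (95% counting interval 0.00565 to 0.081). Ctsw, cathepsin W, stood at 25.5 and 52.1 CPM in CD4 T cells, against 239 and 123 in CD8 T cells. Xcl1, a chemokine that attracts dendritic cells, had 0 UMIs, against 56 and 22 in CD8 T cells, and was at least 7.02-fold lower. Ccl5, Nkg7, Klrd1 and Ctsw also passed DESeq2.

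Nkg7 was seen in 4.13% and 0% of CD4 T cells, against 80.9% and 41.6% of CD8 T cells and 0.306% and 0.2445% of endothelial-marked cells. Of the CD8 lineage list, Runx3 and Eomes could be tested, Eomes passing the filter on low counts through CD8 T cells alone. Runx3, which silences Cd4 in the CD8 lineage, stood at 40.8 and 17.4 CPM in CD4 T cells, against 177 and 125 in CD8 T cells (log2 change -2.45 ± 0.38; edgeR adjusted p = 7.1e-09; DESeq2 adjusted p = 0.0589). Eomes, a T-box factor of cytotoxic cells, had 0 UMIs in CD4 T cells, against 29 and 18 in CD8 T cells, at least 4.23-fold lower. Ccr9, which directs T cells to the gut, had 0 UMIs, against 59 and 16 in CD8 T cells, at least 6.75-fold lower. Like Eomes, Ccr9 passed the filter through CD8 T cells alone.

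**Figure D4:**
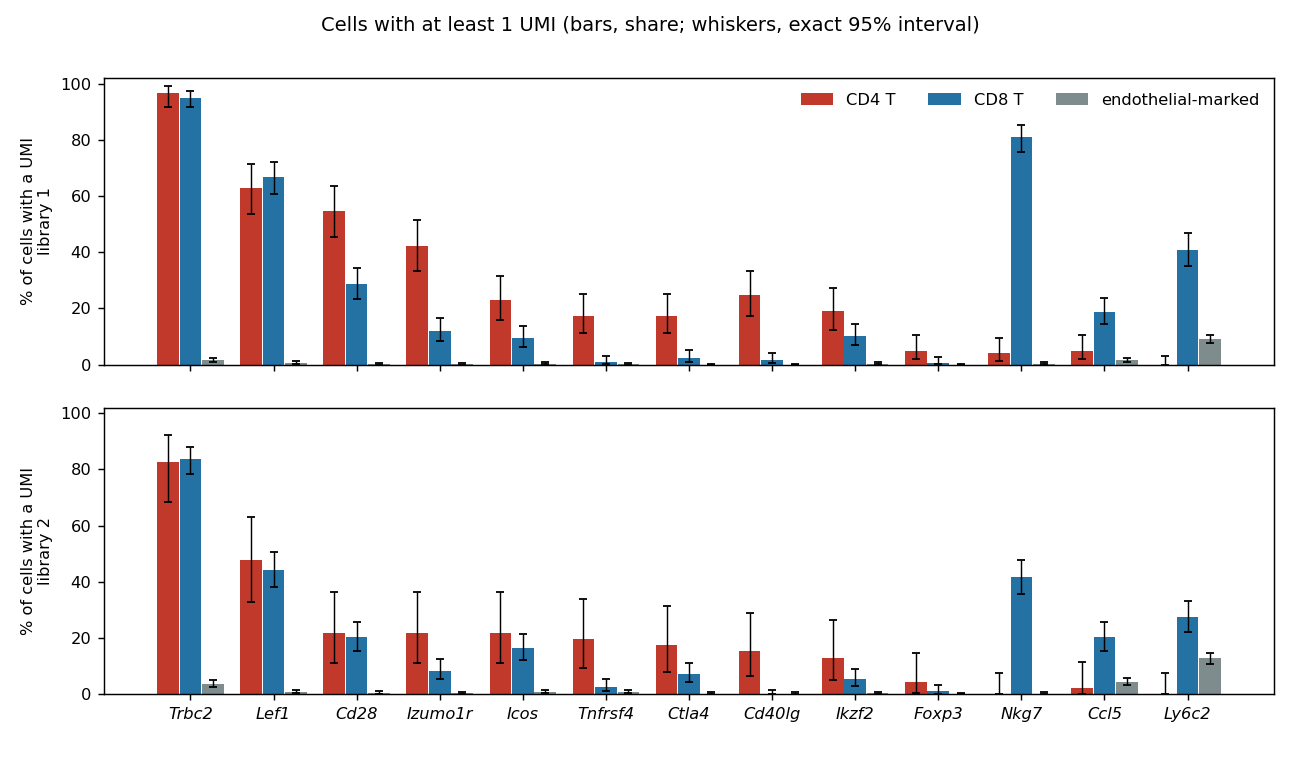
Share of cells with at least 1 UMI in CD4 T cells (red), CD8 T cells (blue) and endothelial-marked cells (grey) of library 1 (top) and library 2 (bottom); whiskers are exact 95% binomial intervals and cover counting error only. Izumo1r, Tnfrsf4 and Cd40lg are more frequent in CD4 T cells in both libraries, and Nkg7, Ccl5 and Ly6c2 in CD8 T cells; depth was not equalised.

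Upstream sequences are shown for 3 of the genes that both tests called, to place the CD4 and CD8 programmes side by side; of 13 listed genes called by both, 5 had a single start in the RefSeq promoter table, and these are the largest changes among them, up to 2 in each direction, leaving out increases carried by 1 cell. Each run is the 250 bases before the transcription start, 5′ to 3′ on the plus strand of GRCm38.p6, in lower case with motif matches in capitals. Tnfrsf4 lies at chr4:156013445-156013694, Ctla4 at chr1:60908775-60909024 and Nkg7 at chr7:43436888-43437137.
Tnfrsf4: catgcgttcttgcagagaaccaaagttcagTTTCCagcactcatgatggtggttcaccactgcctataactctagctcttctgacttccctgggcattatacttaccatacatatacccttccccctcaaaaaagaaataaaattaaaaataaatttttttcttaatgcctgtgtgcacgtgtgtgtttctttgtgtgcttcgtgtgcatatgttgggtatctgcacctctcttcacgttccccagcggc
Ctla4: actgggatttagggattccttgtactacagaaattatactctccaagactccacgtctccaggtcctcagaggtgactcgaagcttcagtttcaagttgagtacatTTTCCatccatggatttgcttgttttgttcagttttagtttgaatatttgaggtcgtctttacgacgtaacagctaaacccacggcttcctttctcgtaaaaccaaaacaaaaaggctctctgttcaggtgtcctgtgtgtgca
Nkg7: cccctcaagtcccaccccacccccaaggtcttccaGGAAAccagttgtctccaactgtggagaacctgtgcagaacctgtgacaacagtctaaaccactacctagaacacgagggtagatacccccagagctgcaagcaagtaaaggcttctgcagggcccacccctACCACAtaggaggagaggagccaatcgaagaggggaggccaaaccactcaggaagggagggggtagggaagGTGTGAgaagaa

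The motifs searched on both strands were GGAAA (NFAT core), TGTGGT (Runx), TCACAC (T-box) and TGANTCA (AP-1), and no match overlapped another in these windows. Tnfrsf4 and Ctla4 each held 1 GGAAA match and no match of the other 3. Nkg7 held 1 GGAAA, 1 TGTGGT and 1 TCACAC match. Among all 32851 RefSeq windows of that length, 55.6% held GGAAA, 14.0% TGTGGT, 12.3% TCACAC and 6.75% TGANTCA. A match describes letters only and shows no binding.

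Genes that define helper subsets were mostly near the limit of detection. Among Th1 genes Tbx21, the T-bet transcription factor, had 0 UMIs in CD4 T cells, against 8 and 5 in CD8 T cells, Il12rb2 had 0, against 4 and 6, and Ifng had 6 and 0, against 34 and 10. Cxcr3 had 8 and 5 UMIs in CD4 T cells, against 26 and 8, Stat4 had 17 and 3, against 38 and 38, and Il18r1 had 12 and 2, against 28 and 15, and none of these 3 passed the test.

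Of the Th2 genes, Gata3, their master transcription factor, had 25 and 3 UMIs in CD4 T cells, against 27 and 19 in CD8 T cells, with a log2 change of 0.83 ± 0.47 (edgeR adjusted p = 0.504). Ccr4 had 4 and 0 UMIs, against 0 and 0, and Il4, listed for library 1 only, had 2, against 0. Il5 was at 0 in CD4 T cells of both libraries, and Il13, listed for library 1 only, was at 0 there.

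Th17 transcripts came from very few cells. Il17a had 45 UMIs in CD4 T cells of library 1, all in 1 cell, and 0 in library 2. Il17f had 46 and 4 UMIs, against 0 and 1 in CD8 T cells, and 92% of them were in that same cell, so its call (log2 change 6.63; edgeR adjusted p = 1.5e-16) describes 2 cells. The Il17 cell held 2248 UMIs, with 1 UMI of Cd4, 1 of Cd3d, 3 of Cd3e, 3 of Cd3g, 3 of Trac, 3 of Trbc2 and 12 of Cxcr6, and none of Trdc. Rora, a nuclear receptor that takes part in Th17 differentiation, stood at 79.1 and 139 CPM in CD4 T cells, against 7.27 and 36.0 in CD8 T cells (log2 change 2.38 ± 0.42; edgeR adjusted p = 7.01e-07). It passed neither DESeq2 (adjusted p = 0.128) nor edgeR with cells thinned to 1000 UMIs (adjusted p = 0.222). Il17f and Rora passed the filter on low counts through CD4 T cells, where they are high. Ccr6 had 3 and 3 UMIs against 1 and 2, Il23r 0 and 1 against 0 and 1, and Il17re was at 0 in both kinds of cell.

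Of the follicular helper genes, Pdcd1, the inhibitory receptor PD-1, had 22 and 2 UMIs in CD4 T cells, against 2 and 2 in CD8 T cells (log2 change 3.97 ± 0.65; edgeR adjusted p = 9.17e-08). Its UMIs lay in 13 cells, 8 of them Tnfrsf4-positive. Sh2d1a, the adaptor SAP, stood at 125 and 130 CPM in CD4 T cells, against 69.1 and 57.9 in CD8 T cells, and did not pass (edgeR adjusted p = 0.196). Tox2 had 5 and 3 UMIs, against 0 and 0, at least 9.88-fold higher against the floor of 3 counts. Bcl6 had 1 and 1 UMIs, against 2 and 7, and Cxcr5 3 and 1, against 3 and 11.

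**Figure D5:**
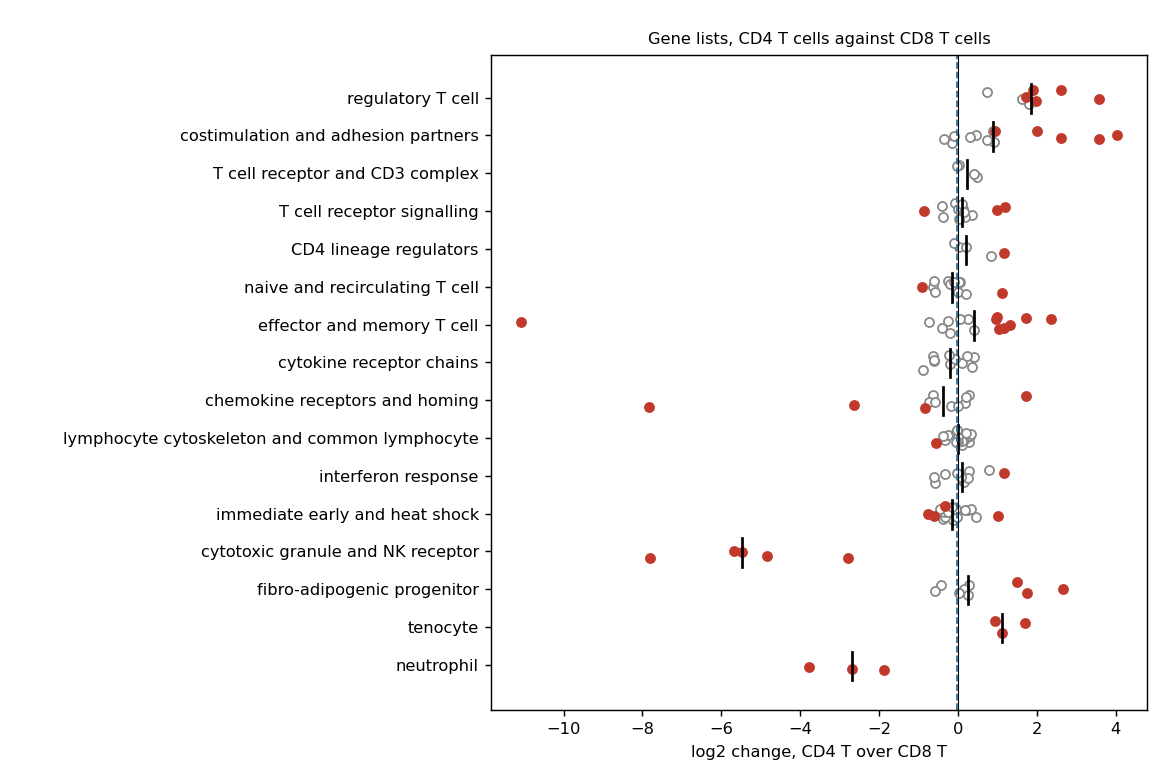
Log2 change, CD4 T over CD8 T, of each tested member of 16 gene lists; filled points passed an adjusted p of 0.05, black bars are list medians and the dashed line is the median of all genes tested, -0.025. The regulatory and costimulation lists, some of whose members reached the test through CD4 T cells, lie to the right. The 5 tested cytotoxic genes, 3 of which reached the test through CD8 T cells, lie to the left. The receptor, signalling, naive and common lymphocyte lists lie around 0. The 3 tenocyte genes were not called once barcodes with RNA of another type were left out.

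Genes shared by all T cells differed little. The counts of called genes below stand beside 2.21% higher and 3.15% lower of all genes tested, and several are near those shares. None of the 4 tested receptor and CD3 genes passed in edgeR or DESeq2, with a median log2 change of 0.22. Trbc1, of the other beta chain constant region, stood at 831.5 and 808 CPM in CD4 T cells, against 799.5 and 590.1 CPM in CD8 T cells (log2 change 0.03 ± 0.16). Cd247, the CD3 zeta chain, stood at 201.5 and 130.3 CPM in CD4 T cells, against 134.5 and 70.7 CPM in CD8 T cells (log2 change 0.48 ± 0.29). Of 14 receptor signalling genes, Cd5 (log2 change 1.20 ± 0.33) and Cd6 (0.98 ± 0.32), scavenger receptors that tune receptor signalling, were higher, Cd6 not without the barcodes with RNA of another type (edgeR adjusted p = 0.0877), and the kinase Txk was lower (-0.87 ± 0.24). Lck, the kinase bound to CD4 and CD8, had a log2 change of 0.10 ± 0.19 (edgeR adjusted p = 0.944). None of 11 cytokine receptor chains passed in edgeR. Il2rg, the common gamma chain, stood at 207 and 199.8 CPM in CD4 T cells, against 193 and 181 CPM in CD8 T cells, and Ifngr1, an interferon gamma receptor chain, at 189 and 278 CPM, against 176 and 567 CPM. Il21r stood at 125 and 148 CPM in CD4 T cells, against 89.0 and 231 CPM in CD8 T cells. Of 12 chemokine receptor and homing genes, Ccr2 was higher (log2 change 1.73 ± 0.48) and 3 were lower, among them Ccr9 and Selplg, the P-selectin ligand. Ccr9 reached the test through CD8 T cells alone. Of 17 common lymphocyte genes 1 was lower, Ms4a4b (log2 change -0.57 ± 0.16). Of 11 interferon response genes 1 was higher, Ifi27l2a, at 1148 and 608 CPM in CD4 T cells, against 380 and 284 in CD8 T cells (log2 change 1.17 ± 0.18; edgeR adjusted p = 1.51e-08). None of the 4 tested cell cycle genes passed in edgeR, and Tubb5, Hmgb2 and Pcna had log2 changes of -0.37 ± 0.21, 0.43 ± 0.24 and -0.60 ± 0.37.

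Stress and translation genes moved by small amounts. For scale, 2.21% of all genes tested were higher and 3.15% lower. Of 17 immediate early and heat shock genes, Dusp1, a phosphatase induced early after stimulation, was higher (log2 change 1.01 ± 0.23), and Dnajb1 (-0.76 ± 0.18), Btg2 (-0.60 ± 0.19) and Hspa8 (-0.33 ± 0.10) were lower. Ribosomal protein genes made up 36.55% and 35.7% of UMIs in CD4 T cells, against 42.05% and 42.2% in CD8 T cells. Mitochondrial transcripts made up 3.19% and 2.86% in CD4 T cells, against 3.25% and 2.78% in CD8 T cells.

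Among the 10 largest increases over CD8 T cells were also Maf, a transcription factor of helper and regulatory T cells, and Tbc1d4. Maf stood at 105 and 60.8 CPM in CD4 T cells, against 11.8 and 6.43 in CD8 T cells (log2 change 2.95 ± 0.49). Tbc1d4 had 41 and 7 UMIs, against 7 and 13 (log2 change 2.87 ± 0.48), and Gpm6b 20 and 4, against 1 and 8 (log2 change 3.15 ± 0.57). Maf and Tbc1d4 did not pass DESeq2 (adjusted p = 0.0982 and 0.205). Kera, Mfge8 and Col1a1 were also among the 10 largest increases, and 51.5%, 56.7% and 55.3% of their CD4 UMIs lay in 1 cell. Maf, Tbc1d4, Gpm6b, Kera and Mfge8 passed the filter on low counts through CD4 T cells, where they are high. Without barcodes with RNA of another type, Col1a1 had a log2 change of -0.12. Among the 10 largest decreases were also Slpi, a protease inhibitor of neutrophils, with 0 UMIs against 97 and 23, Adgrg5 with 0 against 42 and 22, and Lcn4 with 1 and 0 against 88 and 29. Slpi, Adgrg5 and Lcn4 passed the filter on low counts through CD8 T cells. The 97 Slpi UMIs of library 1 lay in 5 CD8 T cells, and without barcodes with RNA of another type Slpi had too few UMIs for the test. The neutrophil alarmins S100a8 and S100a9 had 4 and 8 and 2 and 16 UMIs in CD4 T cells, against 402 and 183 and 271 and 170 in CD8 T cells; without the barcodes with RNA of another type their log2 changes were -0.06 and 0.30.

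MHC class II genes mark antigen-presenting cells, and the direction of Cd74 and H2-Ab1 differed between the libraries. Of 4 class II genes tested, Cd74, H2-Ab1 and H2-Eb1 were lower in CD4 T cells, beside 3.15% lower of all genes tested. Cd74, the class II invariant chain, had 78 and 9 UMIs in CD4 T cells, against 88 and 643 in CD8 T cells, a log2 ratio of 1.32 in library 1 and -3.33 in library 2. H2-Ab1 had 23 and 7 UMIs, against 56 and 296, a log2 ratio of 0.22 in library 1 and -2.55 in library 2. The direction for Cd74 and H2-Ab1 thus rests on library 2. Of the CD4 UMIs of Cd74, 60.9% lay in 1 cell of library 1, so the ratio of Cd74 in library 1 rests largely on that cell. H2-Eb1 had the same direction in both libraries. Without barcodes with RNA of another type, all 4 were called lower.

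Against all other cells, 1953 of 12539 genes (15.6%) passed, 551 higher in CD4 T cells (4.39%) and 1402 lower (11.2%). The rule picks T cells out of a suspension made up mostly of other cells, so these counts describe the choice. DESeq2 called 6.95%, 2.62% higher and 4.34% lower, and edgeR without barcodes with RNA of another type 17.5%, 4.55% higher and 13% lower. All 4 receptor genes, 14 of 15 signalling genes, 12 of 13 costimulation genes and 15 of 17 common lymphocyte genes were higher. The 10 largest increases were Il17f, Tnfrsf4, Izumo1r, Ctla4, BC021614, Cd5, Tnfsf8, Pdcd1, Cd6 and Cd40lg. Tnfrsf4 led those not resting on 1 cell, at 283 and 530 CPM in CD4 T cells, against 7.96 and 25.3 in all other cells (log2 change 4.85; edgeR adjusted p = 5.38e-49). Izumo1r stood at 357 and 235 in CD4 T cells, against 16.0 and 13.3 in all other cells (log2 change 4.43). Tnfsf8, the CD30 ligand, stood at 135 and 191 in CD4 T cells, against 7.96 and 14.3 in all other cells (log2 change 4.02). Immediate early and heat shock genes were lower in 14 of 17 cases, among them Egr1 at 56.1 and 122 CPM in CD4 T cells, against 727 and 500.2 in all other cells, while Hspa1a did not pass (edgeR adjusted p = 0.156).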

How the data were processed

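Muscle suspensions were profiled with droplet 3′ single-cell RNA sequencing, and the deposited tables hold counts of UMIs per gene and cell, already filtered by the authors. Per the submitters' processing notes, the tools were Cell Ranger 2.2.0, STAR 2.5.1b, R 3.5.1 and Seurat 2.3.4, with genome build mm10. The tables held 6144 and 6297 cells, with at least 657 and 669 UMIs each. UMIs were summed per kind of cell and library over the genes in both tables, and compared with edgeR 4.0.16 (quasi-likelihood, TMM, filterByExpr, library as a block, two-sided, Benjamini-Hochberg threshold 0.05). SEs are approximate, the log2 change over the square root of F. Intervals and floors (3 counts) cover counting error only. Endothelial-marked cells held at least 3 of 5 endothelial genes. Scrublet called 52 doublets in library 1 and 4 in library 2, where it has not worked; none was a CD4 T cell and all were kept. The libraries shared 53 barcodes, and no barcode was a CD4 T cell in both.

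Members and gene lists were chosen with earlier results of these data known. Named genes were the rule genes, every member of the receptor, regulatory and helper subset lists, up to 4 called members of each other list by adjusted p (or the 3 highest), and the 10 largest called changes with at least 20 UMIs and the same sign in both libraries. Other genes named, among them Zbtb7b, Lef1, Tcf7, Lck, Ccr7, Egr1 and Hspa1a, and the split by Tnfrsf4, were chosen after their values were seen. A few list members are not reported here. Scripts were tested on simulated data. A test of Foxp3-positive against Foxp3-negative cells needed 5 cells per library and was not run. Alternatives were DESeq2 1.42.0 as a test and for size factors, other filters and cell rules, thinning, and leaving out a library.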

Additional observations from a re-analysis of the deposited data

How the results depend on the processing

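Against CD8 T cells, the 117 genes higher in CD4 T cells became 14 with the DESeq2 test, 68 with no filter on low counts, 0 with no replicate block (122 at an unadjusted p under 0.05), 46 with at least 2 CD3 UMIs and 5 with cells thinned to 1000 UMIs. The 167 lower became 7, 66, 1 (136 unadjusted) and 17 with the DESeq2 test, no filter, no replicate block and thinning. Against all other cells, the 551 higher became 328 with DESeq2 and 205 when thinned, and the 1402 lower became 544 and 725. For 2 alternatives chosen after seeing the data, leaving out barcodes with RNA of another type gave 63 higher against CD8 T cells, and the bias-adjusted quasi-likelihood gave 49 higher and 104 lower against CD8 T cells and 90 higher and 276 lower against all other cells. The cause was not tested. Thinning also left fewer genes tested.

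Without barcodes with RNA of another type, log2 changes against CD8 T cells turned to -0.12 for Col1a1, -0.18 for Dcn, -0.29 for Fmod and 0.30 for S100a9. With at least 2 CD3 UMIs they turned to -0.23 for Fmod and -0.31 for Tnmd. Leaving out a library gave -3.33 to 1.32 for Cd74, -0.042 to 2.402 for Fmod and -2.55 to 0.22 for H2-Ab1. Of 63 named genes, 62 kept their call with DESeq2 size factors and 1 with no replicate block. With the DESeq2 test 14 kept it and 42 lost it, and with thinning 9 kept it and 32 lost it. With at least 2 CD3 UMIs 35 kept it, 24 lost it and 2 changed direction. Genes with no adjusted p in a setting are not in its counts. The share of CD4 T cells ranged from 0.731% to 1.97% over the libraries. Alternatives for the Foxp3 comparison were not run.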
